A study of Mus musculus with 16 samples.

Results

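The 10 genes described here encode the light-detection cascade of cone photoreceptors: the short-wavelength opsin Opn1sw, the middle-wavelength opsin Opn1mw, cone arrestin Arr3, the cone transducin subunits Gnat2, Gnb3 and Gngt2, the cone phosphodiesterase subunits Pde6c and Pde6h, and the cone channel subunits Cnga3 and Cngb3. They were listed by name, and every probe carrying one of these symbols in the gene column of the deposited array table was taken, in any letter case. This gave 15 of the 25697 probes on the array. By RefSeq the genes lie on mouse chromosomes 6 (Opn1sw, Gnb3 and Pde6h), X (Opn1mw and Arr3), 3 (Gnat2), 11 (Gngt2), 19 (Pde6c), 1 (Cnga3) and 4 (Cngb3). Opn1sw, Arr3, Gngt2, Pde6c and Cnga3 had 2 probes each, and the other genes had 1. In genes with 2 tested probes the brighter is given under the gene's name and the dimmer is called the second probe. A probe was tested when its signal exceeded the negative-control beads (detection p under 0.05) on at least 4 of the 16 arrays. Of the 15 probes, 14 passed. The second Opn1sw probe was detected on 0 of 16 arrays, with intensities between -3.94 and 4.24, and its values are not used further.

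The series measured total RNA of the retina on 16 single-sample bead arrays in 4 groups of 4: aged females, young females, aged males and young males. All were C57BL6 mice kept without genetic or drug intervention, so no group carries a transgene or a treatment. Aged is 24 months and young is 3 months by the labels, except that the male titled aged 1 has an age label of 12 months. It is kept with the aged males. The aging values in males and over both sexes, the interactions, and the sex comparisons named by 24 months or over both ages therefore include it. The labels do not say whether arrays of a group came from separate animals or pools, so the p-values below measure the spread between arrays, which may be partly technical.

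Cones serve daylight and colour vision and are a small minority of mouse photoreceptors beside rods. Light isomerises the chromophore of a cone opsin, the opsin activates transducin, transducin releases the inhibition of phosphodiesterase, cyclic GMP falls and the cyclic nucleotide-gated channel closes; arrestin binds the phosphorylated opsin and ends its activity. In the mouse most cones express both opsins, with short-wavelength opsin dominating in the ventral retina and middle-wavelength opsin in the dorsal retina. In RNA of the whole retina, fewer cones and less RNA per cone cannot be told apart.

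Mean raw intensity per array lay between 158 and 240, and between 52.6% and 57.0% of probes were detected on each array. Arrays of one group correlated at 0.983 to 0.995 over all tested probes, and no 2 arrays held identical values. The rod markers, 11 of 13 of which were tested, had summed levels of 77035 to 89850 in aged females, 78982 to 85199 in young females, 74045 to 82824 in aged males and 77211 to 85543 in young males, so the labelled tissue carried its defining photoreceptor transcripts in every group. Markers of other tissue at the retina's borders were also present: the 10 lens crystallin and lens genes summed to 21332 to 57777 in aged females, 52817 to 61303 in young females, 44403 to 63090 in aged males and 41738 to 80535 in young males. These sums are on the linear scale of the background-corrected, quantile-normalised signal. The arrays lay on 5 slides, 4 of which held more than 1 group. Slide 1 held aged females but not young females, and slide 5 held 1 array, a young female.

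The promoters of the opsins are shown because the rest of the account turns on these genes. They are the 250 bases before the annotated start in RefSeq, build GRCm38.p6, read 5′ to 3′ on the gene's own strand. RefSeq windows were at hand for 6 of the 10 genes. Capitals mark matches on either strand to the core of photoreceptor homeodomain sites, TAATC, which reads GATTA on the other strand, to the nuclear receptor half-site AGGTCA, which reads TGACCT on the other strand, and to TATAAA, which reads TTTATA on the other strand. These motifs do not overlap one another in the windows printed.
Opn1sw, chr6:29380514-29380763, minus strand: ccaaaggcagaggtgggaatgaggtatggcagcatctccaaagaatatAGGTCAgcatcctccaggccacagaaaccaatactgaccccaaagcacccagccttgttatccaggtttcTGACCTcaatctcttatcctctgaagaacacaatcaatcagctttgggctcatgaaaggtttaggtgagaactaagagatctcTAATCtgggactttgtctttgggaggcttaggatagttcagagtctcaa
Opn1mw, chrX:74127216-74127465, plus strand: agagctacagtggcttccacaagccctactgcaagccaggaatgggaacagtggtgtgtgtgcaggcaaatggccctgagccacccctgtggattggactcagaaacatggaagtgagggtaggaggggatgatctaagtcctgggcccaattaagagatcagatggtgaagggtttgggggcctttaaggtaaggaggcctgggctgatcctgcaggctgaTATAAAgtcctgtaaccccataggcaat
The Opn1sw window held TAATC from 49 to 45 bases before the start, AGGTCA from 202 to 197 and TGACCT from 132 to 127. The Opn1mw window held TATAAA from 28 to 23 bases before the start and neither of the other motifs. Of 32817 promoter windows of the same length, 19.8% held the homeodomain core, 14% the half-site and 12.4% TATAAA, so each is common, and a match is a description of letters.

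Short-wavelength opsin passed the aging test in neither sex. Opn1sw, the blue and ultraviolet pigment of mouse cones, had log2 levels of 6.02, 6.20, 6.26 and 6.25 in the 4 aged females, against 6.46, 6.23, 5.98 and 6.12 in the 4 young females. In males it had 6.01, 6.38, 5.77 and 6.18 in aged retinas, against 6.68, 6.42, 6.10 and 5.88 in young retinas. The aged and young arrays overlapped in both sexes, and the widest spread was among the young males. The level averaged 6.18 ± 0.11 in aged females and 6.20 ± 0.20 in young females, and 6.09 ± 0.26 in aged males and 6.27 ± 0.35 in young males (SD, n = 4 each). In one limma fit over all 15016 tested probes, the aged minus young change was -0.02 in females (95% interval -0.35 to 0.31, adjusted p = 0.992) and -0.18 in males (-0.51 to 0.15, adjusted p = 0.620). The raw intensity of this probe was low, 32.3 to 93.0 with a median of 57.2, though it was detected on all 16 arrays.

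Middle-wavelength opsin was measured on a far brighter probe, with raw intensities of 3026 to 6110, and it did not pass the test either. Opn1mw, the green-sensitive pigment, had log2 levels of 12.45, 12.14, 12.49 and 12.24 in aged females, against 12.08, 12.23, 12.15 and 12.24 in young females. It had 12.03, 11.72, 12.25 and 11.99 in aged males, against 11.68, 12.19, 12.39 and 12.32 in young males. The lowest of all 16 arrays was young male 1 and the highest was aged female 3, and the age groups overlapped in both sexes. The aged minus young change was 0.15 in females (95% interval -0.14 to 0.44, adjusted p = 0.904) and -0.15 in males (-0.44 to 0.14, adjusted p = 0.657), and over both sexes it was 0.00 (-0.20 to 0.21). The difference between these changes, 0.30 (-0.12 to 0.71, adjusted p = 0.622), did not pass.

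The balance of the opsins was set out per array as the log2 level of Opn1sw minus that of Opn1mw. Because each probe has its own brightness, the size of this difference says nothing about the ratio of the transcripts; only its shift between groups is read. It averaged -6.15 ± 0.23 in aged females and -5.98 ± 0.25 in young females, and -5.91 ± 0.47 in aged males and -5.87 ± 0.65 in young males (SD, n = 4 each). The aged minus young shift was -0.17 in females (exact two-sided permutation p = 0.40). Its 95% interval, -0.84 to 0.50, comes from a linear model that pools the spread of all 4 groups, which was wider in males. In males the shift was -0.04 (exact permutation p = 0.914), and its sign turned without normexp correction, with median scaling and on the authors' scaled values. The female minus male difference was -0.24 at 24 months (exact permutation p = 0.457) and -0.10 at 3 months (exact permutation p = 0.80). Over the 6 such comparisons, which include the mean aging shift of -0.10 and the interaction of -0.13, every Benjamini-Hochberg adjusted p was 0.914; the smallest p that 4 arrays against 4 allow is 0.0286. Arrays of one slide gave aging shifts of -0.60 and 0.18 in females and of -1.02 and 0.46 in males, so the sign differed between slides in both sexes.

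**Figure D1:**
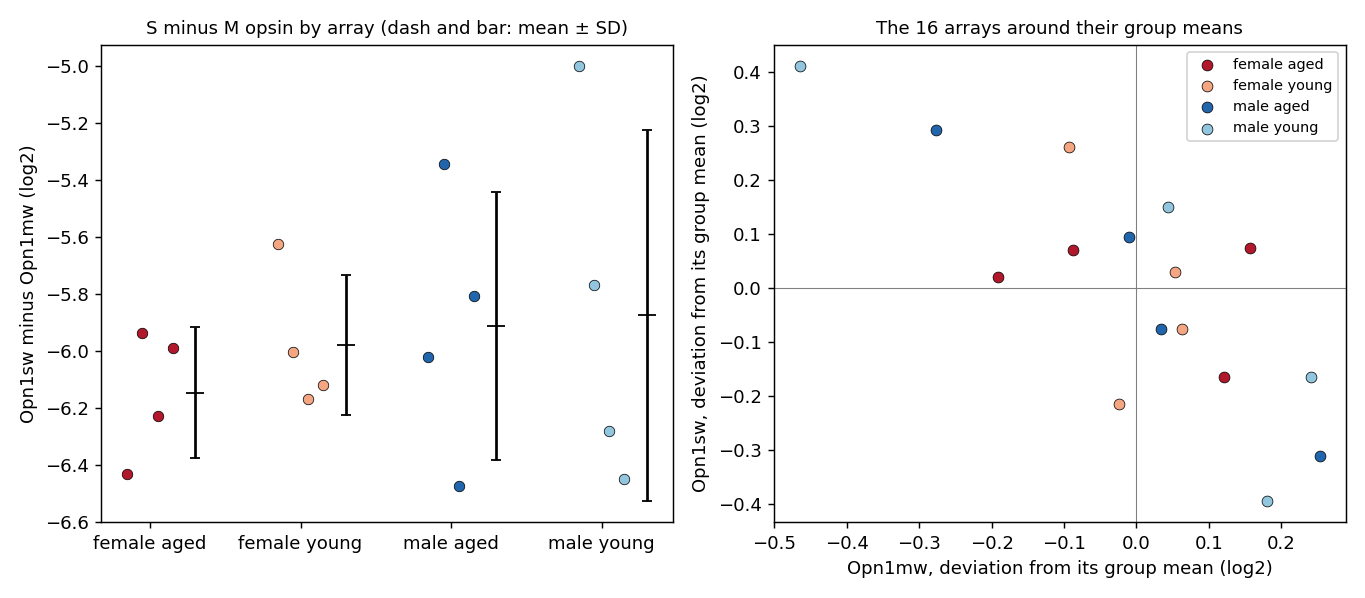
Left, the Opn1sw minus Opn1mw log2 difference on each of the 16 arrays, by group, with each group's mean and SD. Right, Opn1sw against Opn1mw on the same arrays, each as its deviation from its own group mean, so differences between groups are removed. The Opn1sw minus Opn1mw difference averaged -6.15 in aged females, -5.98 in young females, -5.91 in aged males and -5.87 in young males, and the groups overlapped.

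Across the 16 arrays the opsins ran opposite to each other by Pearson's r, while the rank correlation did not pass. Pearson's r was -0.56 (permutation p adjusted over 5 such relations = 0.0402), and Spearman's rho was -0.42 (adjusted p = 0.129). Without young male 1 and aged male 3, the arrays farthest from the median of Opn1sw, r was -0.37, so the pooled relation rests largely on those arrays. Young male 1 had the highest Opn1sw and the lowest Opn1mw of all arrays. Aged male 3 had the lowest Opn1sw. With the group means removed r was -0.79, and with the slide means removed it was -0.72. These correlations were neither tested nor recalculated without young male 1 and aged male 3. Both opsins varied more among males. The SD of Opn1sw was 0.26 in aged and 0.35 in young males, against 0.11 in aged and 0.20 in young females. That of Opn1mw was 0.22 in aged and 0.32 in young males, against 0.17 in aged and 0.07 in young females. The values come from the same RNA and share an array and its normalisation. With median scaling, without background correction and on the authors' scaled values, r lay at -0.62, -0.57 and -0.52; these settings were chosen after the values had been seen.

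Outside the cone cascade, the patterns of 11015 genes over the 16 arrays were ranked by Pearson's r with each opsin. The 5 highest for Opn1sw were Traf3ip2 (0.76), Tmem179b (0.75), Nap1l1 (0.74), Piezo2 (0.72) and Mief1 (0.70). Those for Opn1mw were Ptp4a2 (0.83), Sox8 (0.82), Frat1 (0.80), Gria1 (0.80) and Pxdc1 (0.78). These are the top ranks of a search over many genes and are given as a description.

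Cone arrestin was higher in females than in males on its second probe when both ages were averaged. Arr3, which binds the phosphorylated cone opsins and shuts them off, had second-probe log2 levels of 9.47, 8.83, 9.39 and 9.48 in aged females, against 9.03, 8.68, 8.85 and 8.96 in aged males. At 3 months it had 9.46, 9.24, 9.57 and 9.74 in females, against 8.70, 9.10, 8.97 and 8.87 in males. All 4 young females lay above all 4 young males. In the aged groups 3 of the 4 females lay above all males, and aged female 2 lay among the males. The female minus male difference was 0.41 at 24 months (SE 0.14, limma adjusted p = 0.209) and 0.59 at 3 months (SE 0.14, adjusted p = 0.0797), and neither passed. Averaged over both ages, a comparison added after the values at each age had been seen, it was 0.50 (95% interval 0.29 to 0.71, adjusted p = 0.0134), a 1.42-fold higher level in females. In that comparison 2.13% of all tested probes passed, and of the 14 cone probes this was the 1 that did; 3 of 14 (both Arr3 probes and Pde6c) had an unadjusted p under 0.05, against 18.1% of all. With slide as a fixed block the difference was 0.38 and no longer passed (adjusted p = 0.0973). Within slides, the aged groups gave 0.12 on slide 1 (2 female arrays against 1 male array) and 0.52 on slide 4 (1 against 1). The male array on slide 1 was aged male 1, whose age label differs from that of the other aged arrays. At 3 months the difference was 0.36 on slide 2 (1 against 1) and 0.32 on slide 3 (1 female array against 2 male arrays). These values were positive each time, but they rest on 1 or 2 arrays a side. Without aged female 2 the difference passed at each age on its own, at 0.56 (limma adjusted p = 0.0258) at 24 months and 0.59 (adjusted p = 0.0168) at 3 months. At 3 months it also passed without young female 2 (adjusted p = 0.0463) or without young male 2 (adjusted p = 0.0425). These were 1 of 26 refits at 24 months and 3 of 26 at 3 months. Calls over all probes moved too. At 24 months they were 281 without aged female 2, against 103 in the main fit. At 3 months they were 236 without young male 2, against 59.

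The brighter Arr3 probe showed a smaller difference in the same direction. Its female minus male difference was 0.25 at 24 months, 0.21 at 3 months and 0.23 over both ages (95% interval 0.03 to 0.43, adjusted p = 0.221). Its log2 levels were 11.13, 11.03, 10.85 and 11.07 in aged females, against 11.07, 10.63, 10.57 and 10.82 in aged males. In young retinas they were 11.55, 10.91, 10.93 and 11.21 in females, against 10.73, 11.06, 10.99 and 10.97 in males. The sexes overlapped at both ages. The Arr3 probes correlated over the 16 arrays at r = 0.62 (permutation p adjusted = 0.0374) with a rho of 0.65 (adjusted p = 0.0392), and at 0.61 without the 2 arrays farthest from the median; with the group means removed r was 0.37. Beside this difference, markers of the retinal pigment epithelium, the cell layer behind the photoreceptors, also differed between the sexes. All 10 tested pigment epithelium genes had values below 0 in the female minus male comparison over both ages, with a median of -1.01, and 2 of them passed. Their summed level was 1724 to 3802 in aged females and 7172 to 11232 in aged males, and 1170 to 8581 in young females and 2119 to 4455 in young males. Their part in the arrestin result, and in that of Pde6c, was not tested. With age, neither Arr3 probe passed: the brighter gave -0.13 in females and -0.17 in males, and the second probe gave -0.21 in females and -0.03 in males.

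**Figure D2:**
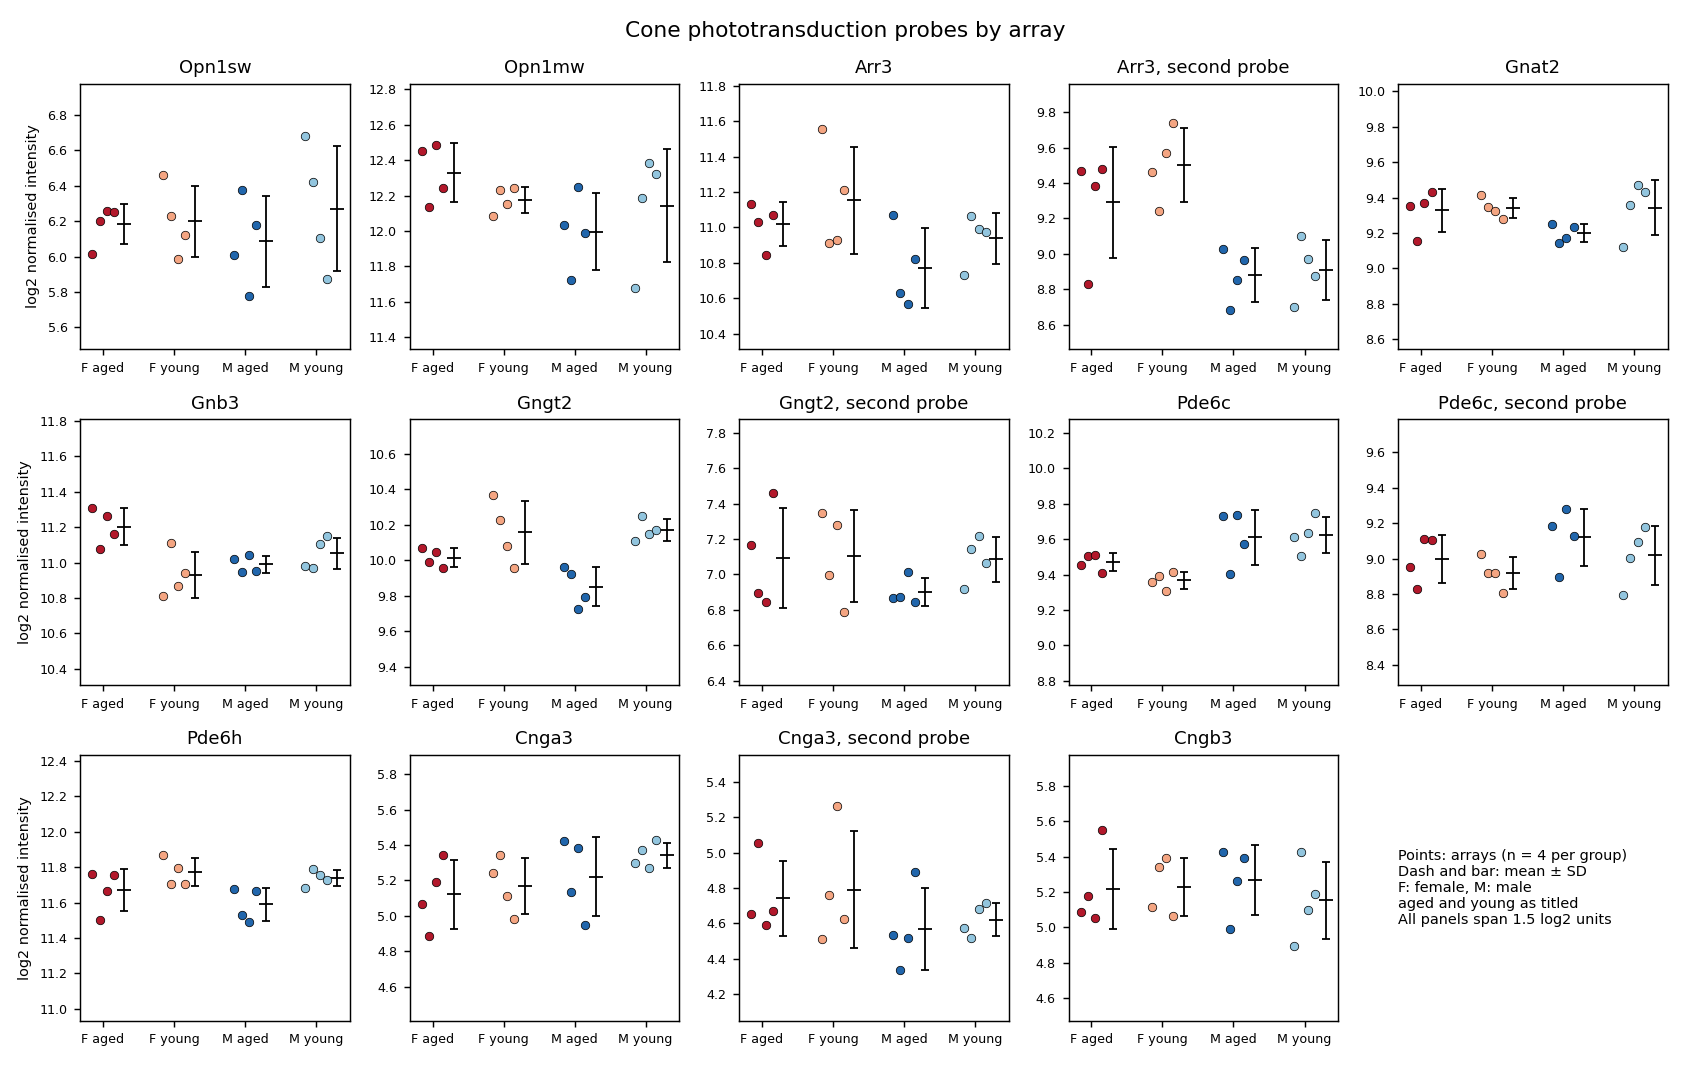
Log2 levels of the 14 tested cone probes on each array, by group. Most groups overlap. Aged males lie below young males on Gngt2 and Pde6h, where 9.08% of all probes did not overlap. Young females lie above young males on the second Arr3 probe and below them on Pde6c (7.66% of all probes). Aged females lie above aged males on Gnb3 (6.77% of all probes).

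Among the transducin subunits, the gamma subunit Gngt2 and the beta subunit Gnb3 gave the largest aging values among the 10 genes, and neither passed. Gngt2 anchors cone transducin to the membrane together with the beta subunit. It had 9.96, 9.92, 9.72 and 9.79 in aged males, against 10.11, 10.25, 10.15 and 10.17 in young males. It had 10.07, 9.99, 10.05 and 9.96 in aged females, against 10.37, 10.23, 10.08 and 9.96 in young females. The male age groups did not overlap, while those of the females did. The aged minus young difference was -0.32 in males (SE 0.09, limma adjusted p = 0.0921) and -0.14 in females (adjusted p = 0.821). Over both sexes it was -0.23 (95% interval -0.36 to -0.10, adjusted p = 0.0657), which is 1.17-fold lower in aged retinas. This value lay close to the threshold: it passed in 6 of 25 refits with other processing or with an array left out, among them the fit with slide as a fixed block (-0.25, adjusted p = 0.0373) and the fit without young female 4 (-0.26, adjusted p = 0.0216). The second Gngt2 probe, which was much dimmer, gave -0.18 in males, -0.01 in females and -0.10 over both. The Gngt2 probes correlated over the 16 arrays at r = 0.44 (permutation p adjusted = 0.0922), with a rho of 0.51 (adjusted p = 0.0763), and at 0.35 without the 2 arrays farthest from the median, or 0.25 with the group means removed.

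Gnb3, the beta subunit of cone transducin, which ON bipolar cells also express, had 11.31, 11.08, 11.27 and 11.16 in aged females, against 10.81, 11.11, 10.87 and 10.94 in young females. It had 11.02, 10.95, 11.04 and 10.95 in aged males, against 10.98, 10.97, 11.11 and 11.15 in young males. In females 3 of 4 aged arrays lay above all young arrays and aged female 2 lay just under the highest young array; in males the groups overlapped. The aged minus young difference was 0.27 in females (95% interval 0.10 to 0.44, unadjusted p = 0.0033, adjusted p = 0.229) and -0.06 in males (adjusted p = 0.758). The difference between the sexes in this value was 0.33 (adjusted p = 0.499), which did not pass. In the aged groups all 4 females lay above all 4 males, with a difference of 0.21 (limma adjusted p = 0.253). Of the 11 bipolar cell genes tested, 11 also had aging values above 0 in females, with a median of 0.11, and 0 passed, with 1 at an unadjusted p under 0.05; in males 3 of 11 lay above 0. Their part in the Gnb3 value was not tested.

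Gnat2, the alpha subunit that carries the signal to the phosphodiesterase, varied little between arrays. Its log2 level averaged 9.33 ± 0.12 in aged females and 9.34 ± 0.06 in young females, and 9.20 ± 0.05 in aged males and 9.34 ± 0.16 in young males (SD, n = 4 each). The aged minus young change over both sexes was -0.08 (95% interval -0.20 to 0.05, adjusted p = 0.709). The range over all 16 arrays was 0.35 on the log2 scale, the smallest of the 14 probes.

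The phosphodiesterase genes showed a lower catalytic subunit level in females that did not pass. Pde6c, the catalytic subunit that breaks down cyclic GMP, had 9.45, 9.51, 9.51 and 9.41 in aged females, against 9.73, 9.40, 9.73 and 9.57 in aged males. At 3 months it had 9.36, 9.39, 9.31 and 9.41 in females, against 9.61, 9.50, 9.63 and 9.75 in males. The young groups did not overlap, the aged groups did. The female minus male difference was -0.14 at 24 months (adjusted p = 0.512), -0.26 at 3 months (adjusted p = 0.150) and -0.20 over both ages (95% interval -0.32 to -0.08, adjusted p = 0.0797). Without aged male 2 the value over both ages was -0.23 and passed (adjusted p = 0.0407). The second Pde6c probe gave -0.12, -0.10 and -0.11 in these comparisons. The Pde6c probes correlated at r = 0.60 over the 16 arrays (permutation p adjusted = 0.0374) with a rho of 0.55 (adjusted p = 0.0749), and at 0.39 without the 2 arrays farthest from the median, or 0.50 with the group means removed. With age Pde6c gave 0.10 in females and -0.01 in males.

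Pde6h, the inhibitory subunit that holds the enzyme back in the dark, had 11.67, 11.53, 11.49 and 11.66 in aged males, against 11.68, 11.79, 11.75 and 11.73 in young males. It had 11.76, 11.50, 11.67 and 11.75 in aged females, against 11.87, 11.71, 11.80 and 11.71 in young females. The highest aged male lay just under the lowest young male, and the female groups overlapped. The aged minus young difference was -0.15 in males (adjusted p = 0.384), -0.10 in females (adjusted p = 0.889) and -0.12 over both sexes (95% interval -0.24 to -0.01, adjusted p = 0.380).

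The channel genes were dim. Cnga3, the subunit that forms the cone channel's pore, had raw intensities of 13.3 to 28.3 on its brighter probe and 1.36 to 24.5 on the second, which was detected on 11 of 16 arrays: 4 of 4 aged females, 3 of 4 young females, 1 of 4 aged males and 3 of 4 young males. Cngb3, the modulatory subunit, had 14.3 to 33.0. The log2 level of Cnga3 averaged 5.12 ± 0.19 in aged females and 5.17 ± 0.16 in young females, and 5.22 ± 0.22 in aged males and 5.34 ± 0.07 in young males (SD, n = 4 each). Cngb3 averaged 5.22 ± 0.23 in aged females and 5.23 ± 0.16 in young females, and 5.27 ± 0.20 in aged males and 5.15 ± 0.22 in young males. The Cnga3 probes did not track each other over the 16 arrays: r was -0.46 (permutation p adjusted = 0.0918), rho was -0.34 (adjusted p = 0.199) and r was -0.18 without the 2 arrays farthest from the median, or -0.41 with the group means removed. Aging values over both sexes were -0.08 for Cnga3, -0.05 for its second probe and 0.05 for Cngb3.

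Set beside all probes, the cone cascade gave no call with age. By limma with Benjamini-Hochberg adjustment, 0 of 14 cone probes passed in females, where 0.633% of all tested probes did, and 1 of 14 (Gnb3) had an unadjusted p under 0.05, against 7.14% of all. In males 0 of 14 passed against 0.992% of all, and 1 of 14 (Gngt2) had an unadjusted p under 0.05, against 14.6% of all. Groups that did not overlap were found in males for 2 of 14 cone probes, Gngt2 and Pde6h, against 9.08% of all, and in females for 0 of 14, against 3.9% of all. Over both sexes 0 of 14 passed against 1.88% of all, and 2 of 14 (Gngt2 and Pde6h) had an unadjusted p under 0.05, against 11.1% of all. The aging test of the difference between females and males called 0 of 14 cone probes and 0% of all probes, with 1 cone probe (Gnb3) and 9.34% of all at an unadjusted p under 0.05.

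For the 11 tested probes other than those of Cnga3 and Cngb3, the intervals of the aging value over both sexes all lay within 0.5 log2 units of 0, running from -0.36 (Gngt2) to 0.24 (the second Pde6c probe). In females 10 of 11 did, and in males 9 of 11. The offset of 16 added to every signal narrows log2 differences of dim probes, including Opn1sw, and the channel probes lie too near the negative controls for their intervals to bound a change in transcript. Values below 0 were found for 10 of 14 cone probes in females, with a median of -0.016 against -0.00099 for all probes, and for 12 of 14 in males, with a median of -0.13 against -0.022 for all probes. Of all probes 50.3% were below 0 in females and 55.9% in males. The 10 genes are parts of one cascade of cones, though ON bipolar cells also express Gnb3, and they are not independent of each other.

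**Figure D3:**
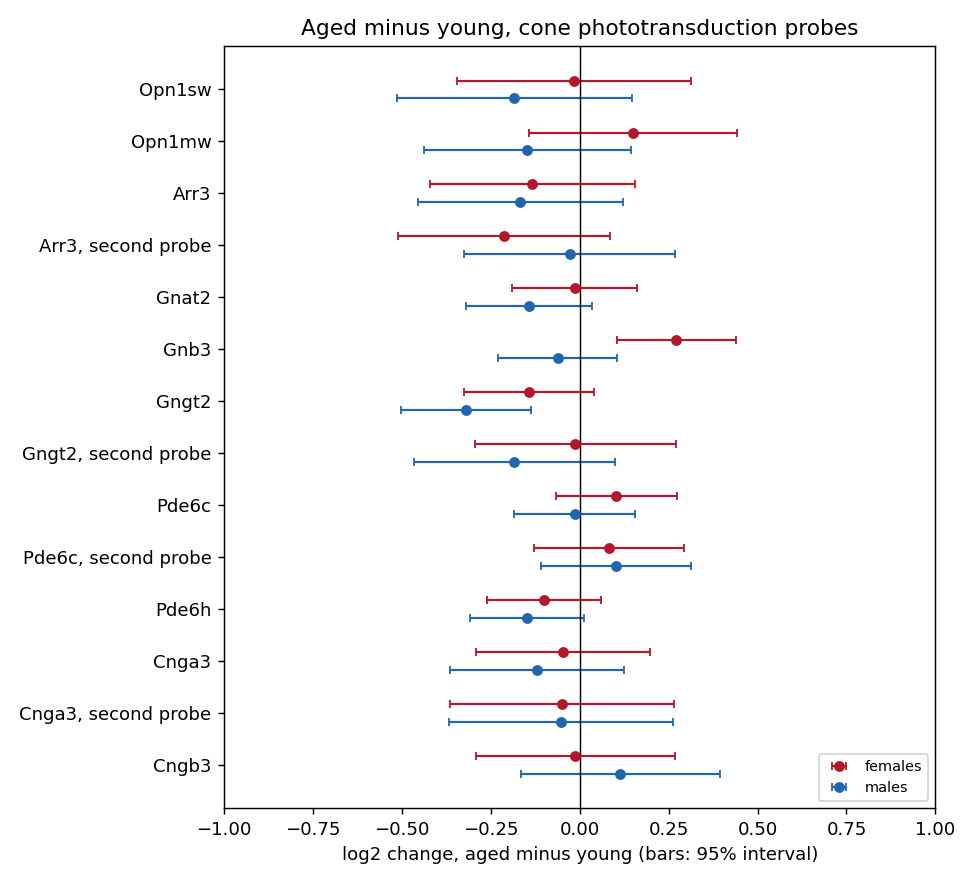
Aged minus young log2 change of each of the 14 cone probes in females and in males, with 95% intervals from the limma fit. The lowest value is Gngt2 in males (-0.32) and the highest is Gnb3 in females (0.27).

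Between the sexes, 0 of 14 cone probes passed at 24 months, against 0.686% of all probes, and 0 of 14 passed at 3 months, against 0.393% of all. At an unadjusted p under 0.05 there were 3 of 14 at 24 months (Opn1mw, the second Arr3 probe and Gnb3), against 12.7% of all, and 2 of 14 at 3 months (the second Arr3 probe and Pde6c), against 15.6% of all. The groups did not overlap for 1 of 14 at 24 months (Gnb3), against 6.77% of all, and for 2 of 14 at 3 months (the second Arr3 probe and Pde6c), against 7.66% of all. For Opn1mw the female minus male difference was 0.33 at 24 months (95% interval 0.04 to 0.62, adjusted p = 0.319) and 0.03 at 3 months. For Opn1sw it was 0.10 at 24 months and -0.07 at 3 months.

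**Figure D4:**
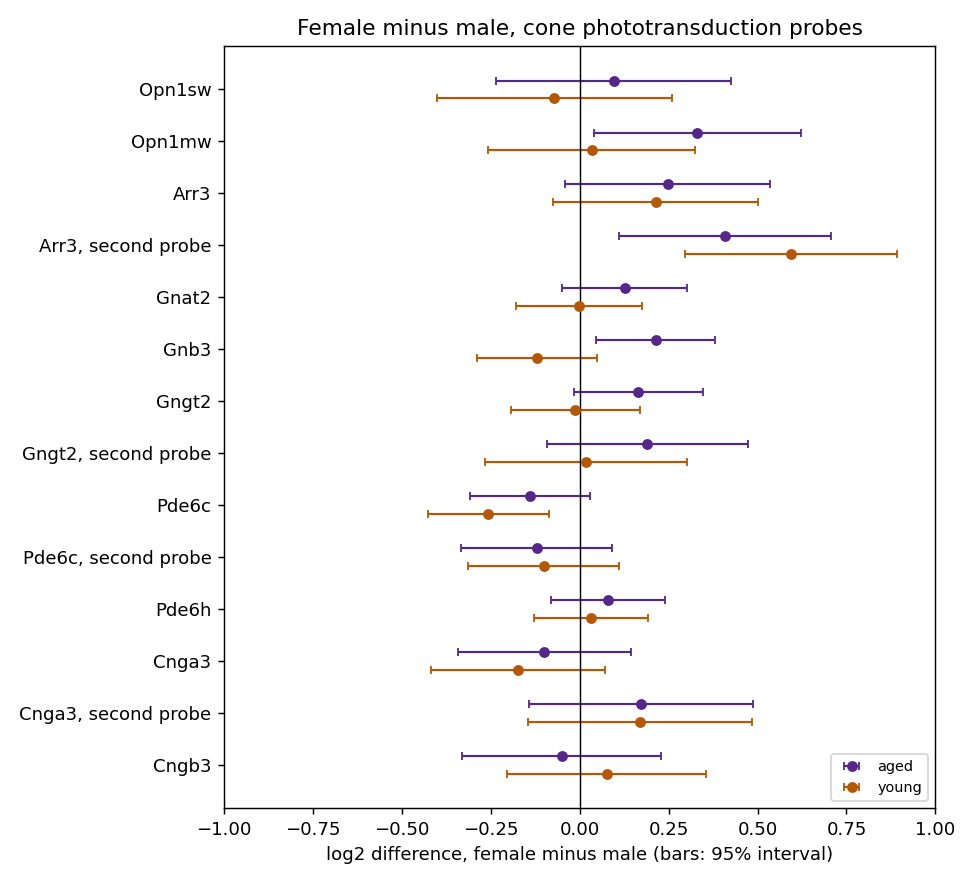
Female minus male log2 difference of each of the 14 cone probes in aged and in young retinas, with 95% intervals from the limma fit. The second Arr3 probe has the highest value at both ages (0.41 aged, 0.59 young) and Pde6c has the lowest (-0.14 aged, -0.26 young).

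The rod forms of the same proteins were set beside the cone genes in the same fit. Of 10 rod counterparts 9 had a tested probe, and 0 passed in any of the 6 planned comparisons; for aging over both sexes 1 had an unadjusted p under 0.05. Among the 7 pairs set side by side, the aged minus young values of the cone and rod forms had the same sign in 2 pairs in females and in 4 in males. Gnat2 gave -0.01 in females and -0.14 in males, and the rod form Gnat1 gave 0.03 and 0.30. Gnb3 gave 0.27 and -0.06, and the rod form Gnb1 gave -0.21 and -0.23. Gngt2 gave -0.14 and -0.32, and the rod form Gngt1 gave 0.17 and 0.16. For arrestin, Arr3 gave -0.13 in females and -0.17 in males, and the rod form Sag gave 0.15 and -0.06. Pde6c gave 0.10 and -0.01, and the rod catalytic subunit Pde6a gave 0.03 and -0.11. Pde6h gave -0.10 and -0.15, and the rod inhibitory subunit Pde6g gave 0.03 and -0.09. Cnga3 gave -0.05 and -0.12, and the rod form Cnga1 gave -0.11 and 0.26. The difference between a cone gene and its rod counterpart was not tested.

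Other genes of the pathway and of cone identity were listed apart from the members. Of 9 further cone genes 6 were tested, and 0 passed with age; Kcnv2 gave -0.08 over both sexes (adjusted p = 0.744). Of 14 regulators shared by rods and cones 13 were tested and 0 passed with age, with 2 at an unadjusted p under 0.05: Unc119, a carrier of lipid-modified transducin alpha subunits, at -0.17 (adjusted p = 0.378) and Gnb5, a partner of the transducin-deactivating protein Rgs9, at 0.14 (adjusted p = 0.397). In the female minus male comparison over both ages, in which the second Arr3 probe passed, 12 of these 13 regulators lay above 0 with a median of 0.11. In limma 0 of them passed and 5 had an unadjusted p under 0.05, against 18.1% of all probes. In the same comparison 11 of the 14 cone probes lay above 0 and 3 below. Of the 11 rod genes 9 lay above 0 and 2 below, while 51.4% of all probes lay below 0. Of 13 photoreceptor transcription factors 8 were tested and 0 passed with age, with 1 at an unadjusted p under 0.05. That gene was Rorb, a nuclear receptor required for photoreceptor development, at -0.29 (adjusted p = 0.233). Crx, the homeodomain factor of rods and cones, gave -0.10 (adjusted p = 0.615).

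Markers of some other cell types passed the same aging test in these arrays. In limma 0 of the 11 rod, 11 bipolar, 7 amacrine and horizontal, 7 ganglion cell and 8 Muller glia genes tested passed with age in either sex or over both, and over both sexes 0, 0, 1, 0 and 2 of them had an unadjusted p under 0.05. Of 10 microglial genes 5 rose in females and 6 in males, and the list's summed level was 547 to 789 in aged females against 411 to 474 in young females, and 630 to 787 in aged males against 423 to 469 in young males. Of 10 pigment epithelium genes 0 passed in females, with 6 at an unadjusted p under 0.05, and 5 rose in males, where their summed level did not overlap between ages. The lens genes gave a median of -0.83 in females, where 9 of 10 lay below 0 and 6 had an unadjusted p under 0.05, and of 0.15 in males, where 4 did; by the adjusted test 0 of 10 passed in either sex, and over both sexes 1 passed: the crystallin gene Crygb fell by 3.57 on the log2 scale. The 3 blood genes tested lay above 0 in both sexes, with medians of 1.17 in females, where 2 had an unadjusted p under 0.05, and 0.43 in males, and 0 passed. Of 6 endothelial genes 0 passed, with 2 at an unadjusted p under 0.05 over both sexes. The part of these markers in the Gngt2, Pde6h and Gnb3 values was not tested.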

How the data were processed

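Retinal RNA was labelled and hybridised to Illumina mouse bead arrays. The authors deposited a non-normalized table of bead intensity and detection p-value per probe and array, and a table of the same intensity multiplied by 1 factor per array (0.821 to 1.25), found by setting one table against the other; for the scanner software and the build, the sources used here name none. Intensity includes values below 0 (20.7% to 24.2% per array). Groups came from sample titles and columns from the array names in the labels.

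From the intensity, limma 3.58.1 in R 4.3.3 (neqc) corrected background from the detection p-values, added an offset of 16, quantile-normalised and took log2. Probes with detection p under 0.05 on at least 4 arrays were kept (15016). One limma model (lmFit, eBayes) with 4 group means, 12 residual degrees of freedom and Benjamini-Hochberg adjustment over all kept probes gave every change of a probe, with a threshold of 0.05 on adjusted p. Intervals are 95%. Opsin differences used exact permutation tests, and correlations 100000 permutations. The interval of the opsin difference came from an ordinary linear model of the 4 group means. The fit was tested on simulated data. Genes were named from the probe column, and 24584 probes took a RefSeq symbol by a match to a symbol, in any letter case, or to a synonym. The rule for named genes took every member probe, the 5 genes most like each opsin, the counterparts, and up to 2 genes of each other list with the smallest p for aging over both sexes; 1 gene that it takes is not reported here, nor is the sex comparison of its list. Members and lists were chosen with earlier results of these data known. Alternatives changed the background correction, the scaling, the probe filter, the variance model, the slide or replicate block, the groups fitted and the arrays left out. Precision rests on 4 arrays in each group.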

Additional observations from a re-analysis of the deposited data

Results flagged for a closer look

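Among the 60 sets of 4 arrays examined (15 values in 4 groups), 2 held an array that stood apart from the other arrays of its group by Dixon's criterion, which chance meets in about 1 in 20 groups. The second Arr3 probe had a log2 level of 8.83 in aged female 2, while the other aged females lay between 9.39 and 9.48. The second Gngt2 probe had a log2 level of 7.02 in aged male 3, while the other aged males lay between 6.84 and 6.87.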

How the results depend on the processing

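In the 6 planned comparisons no cone probe passed in the main analysis. The count became 1 for aging over both sexes, Gngt2 each time, without normexp correction, on the authors' scaled values, with an intensity trend and robust variances, and with slide as a fixed or as a random block; over arrays left out it was 0 to 1. Leaving out 1 array gave 0 to 1 at 24 months and 0 to 1 at 3 months for the sex difference, the second Arr3 probe each time. In the sex difference over both ages, added after the data were seen, the count was 0 with slide as a fixed block and 1 to 2 over arrays left out. Adjusted p for Gngt2 over both sexes ran from 0.0216 to 0.304 over 25 refits.
Over all probes, the count with no filter on dim probes was 62 for aging in females, 45 for sex at 24 months and 34 for sex at 3 months. The strict filter gave 97 for aging in males and 186 over both sexes. Slide as a fixed block gave 33 at 24 months, 26 at 3 months and 151 over both ages. Fitting only the 2 groups compared gave 36 for aging in females and 28 for sex at 24 months. Leaving out 1 array gave 59 to 99 for aging in females, 55 to 230 in males (55 without aged male 3, 230 without aged male 1, the array with the 12-month label), 26 to 281 for sex at 24 months (281 without aged female 2), 24 to 236 for sex at 3 months (236 without young male 2) and 160 to 511 over both ages. The cause of these moves was not tested.
The replicate block (arrays paired by replicate number) gave 79 for aging in males, 55 at 24 months, 36 at 3 months and 161 over both ages, and changed no call of a cone probe. Same-numbered arrays of different groups correlated at -0.34 to 0.38 in their deviations from group means, 4 of 24 pairs were over 0.1, and 1 of 16 arrays correlated best with its own number, so the numbers were not taken to pair the arrays. Pairs of different groups on the same slide had a median of 0.065, with 9 of 19 over 0.1. Pairs on different slides had a median of -0.015, with 18 of 77 over 0.1. The fit with slide as a random block estimated a correlation of 0.13 within slides. The main fit had no term for slide.
The Opn1sw minus Opn1mw aging shift in males, -0.04, was 0.018 without normexp correction, 0.0020 with median scaling and 0.014 on the authors' scaled values. It was -1.02 on slide 1 (1 array against 1, the aged one with the 12-month label) and 0.46 on slide 3 (2 against 2). In females the shift was -0.60 on slide 2 (1 against 1). The sex difference at 3 months was 0.36 on slide 3 (1 female array against 2 male arrays). Leaving out 1 array gave -0.23 to 0.25 in males, -0.20 to 0.044 over both sexes, -0.30 to 0.19 for sex at 3 months and -0.42 to 0.060 for the interaction, none passing.
Some refits cannot move a value, so its sign could not turn in them. These are the other probe filters, the intensity trend, the fits of only the groups compared, and leaving out an array of a group not compared. Within slides, where a value rests on 1 or 2 arrays a side, 34 of 112 member values had the opposite sign to the main value. Of 2492 refitted member changes, 98 had the opposite sign to the main value, 0 of those passed, and the largest was 0.12 in size. The cause was not tested. With median scaling these were Gnat2 aging in females at 0.022, Opn1mw at -0.013 and Pde6h at -0.062 for sex at 3 months, the second Pde6c probe's interaction at 0.019 and Gnb3 over both ages at -0.012. With slide as a fixed block they were Gnat2 aging in females at 0.028, Opn1sw for sex at 24 months at -0.036 and over both ages at -0.049, Gngt2 for sex at 3 months at 0.082, the interactions of Arr3 at -0.055 and of the second Pde6c probe at 0.010, and Cngb3 over both ages at -0.011. With slide as a random block they were Gnat2 aging in females at 0.0029, Gngt2 for sex at 3 months at 0.0023 and Opn1sw over both ages at -0.012.
Leaving out 1 array turned the sign of these aging changes in females: Opn1sw (-0.088 to 0.070), Arr3 (-0.21 to 0.00013), Gnat2 (-0.050 to 0.044), the second Gngt2 probe (-0.13 to 0.070), Cnga3 (-0.12 to 0.032), its second probe (-0.15 to 0.11) and Cngb3 (-0.12 to 0.043). In males it turned the second Arr3 probe (-0.099 to 0.038), Pde6c (-0.056 to 0.055) and the second Cnga3 probe (-0.16 to 0.026). Over both sexes it turned Opn1mw (-0.075 to 0.048), the second Cnga3 probe (-0.10 to 0.028) and Cngb3 (-0.0043 to 0.097). For sex at 24 months it turned Opn1sw (-0.0084 to 0.19) and Cngb3 (-0.16 to 0.0030). For sex at 3 months it turned Opn1sw (-0.20 to 0.065), Opn1mw (-0.12 to 0.11), Gnat2 (-0.076 to 0.040), Gngt2 (-0.082 to 0.055), its second probe (-0.064 to 0.12), Pde6h (-0.0014 to 0.053) and Cngb3 (-0.010 to 0.17). For the interaction it turned Arr3 (-0.046 to 0.17), the second Pde6c probe (-0.094 to 0.056), Cnga3 (-0.018 to 0.15) and its second probe (-0.10 to 0.16). For sex over both ages it turned Opn1sw (-0.053 to 0.080) and Cngb3 (-0.043 to 0.058).
The dim probes of Cnga3, Cngb3 and Opn1sw lie near the negative controls, which limits what they can show.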
